A study of Danio rerio with 8 samples.

Results

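The genes examined were c1qa (ENSDARG00000044613), c1qb (ENSDARG00000044612) and c1qc (ENSDARG00000095627), taken by their symbols from a table of 35197 gene rows, in which all 3 were found. Their RNA was measured in 8 zebrafish larvae at 6 days post fertilization, and each library was made from a single whole larva. There were 4 wild-type siblings and 4 zygotic homozygotes for the allele osgep G177A. Being zygotic homozygotes, the latter came from parents able to supply wild-type osgep to the egg. The labels name no clutch or collection day, and no treatment. osgep encodes the catalytic subunit of KEOPS, an enzyme complex that modifies transfer RNAs. The comparison asked how the levels of the C1q genes differed between homozygous and wild-type larvae.

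C1q is the recognition part of the classical complement pathway. It is built from 3 kinds of chain, A, B and C, each with a collagen-like stalk and a globular head, and in mammals the chains assemble together. Bound C1q activates the proteases C1r and C1s, which cleave C4 and C2, and it also tags dying cells and synapses for uptake. Most complement proteins are made by the liver, whereas C1q is made mainly by macrophages and by microglia, the macrophages of the brain, and the zebrafish genes are used as markers of microglia.

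Estimated counts totalled 14398812 to 19052599 per library, and 21447 rows were abundant enough to test. The factors that scale the libraries to each other ranged from 0.732 to 1.065 in wild-type larvae and from 0.951 to 1.23 in homozygotes. Wild-type larva 1 and homozygote 2 stood apart from their groups on the first principal component (32.2% of the variance), at -5.26 and -3.38, while the other wild-type larvae lay between 34.3 and 60.65 and the other homozygotes between -50.92 and -34.5. Members, ratios and counts over lists are therefore also given without this pair. The pair was chosen from these same data, and each was the larva of its group nearest the other group on that component. Leaving it out thus favours calls (3952 rows in place of 226 by edgeR), and calls in that fit are no independent check. osgep itself was 7.46, 11.5, 10.1 and 5.55 CPM (scaled counts, relative to the library total) across wild-type larvae 1 to 4 and 2.60, 3.68, 1.64 and 2.99 CPM across homozygotes 1 to 4 (log2 fold change -1.66, SE 0.29, adjusted p = 0.0187 from edgeR's quasi-likelihood fit, with the Benjamini-Hochberg method over all rows). Leaving out wild-type 2 (0.0722), wild-type 3 (0.0855), homozygote 1 (0.0608) or homozygote 3 (0.0516), or scaling by library totals alone (0.0536), ended that call, these being adjusted p from edgeR.

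All 3 C1q genes were lower in the homozygotes, c1qb by 9.96-fold, c1qa by 8.36-fold and c1qc by 4.89-fold. Over all tested rows 0.769% were called lower (165 of 21447). In each of the 3 genes the highest homozygote lay below the lowest wild-type larva, as in 4.95% of all rows. Among the 165 rows called lower, sorted by log2 fold change, c1qb was number 7, c1qa number 11 and c1qc number 30. In RNA of whole larvae, fewer cells that carry these transcripts and less of them per cell cannot be told apart.

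c1qa, the gene of the A chain, had 103, 76, 83 and 39 counts in wild-type larvae 1 to 4 and 7, 9, 14 and 17 counts in homozygotes 1 to 4. On the CPM scale these were 5.78, 6.24, 5.56 and 2.28 in wild-type larvae and 0.396, 0.510, 0.621 and 0.795 in homozygotes. The first 3 wild-type larvae were close to each other and wild-type 4 was lower, yet still 2.86 times the highest homozygote. The means were 4.96 ± 1.81 CPM (SD, n = 4) and 0.581 ± 0.170 CPM (SD, n = 4), with a log2 fold change of -3.06 (SE 0.38, adjusted p = 0.00496 by edgeR).

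c1qb, the gene of the B chain, had 26, 25, 51 and 24 counts in wild-type larvae 1 to 4 and 5, 2, 4 and 5 in homozygotes 1 to 4, equal to 1.46, 2.05, 3.42 and 1.40 CPM and to 0.283, 0.113, 0.178 and 0.234 CPM. Wild-type 3 was the high larva, and the lowest wild-type larva was 4.95 times the highest homozygote. The mean level was 2.08 ± 0.94 CPM (SD, n = 4) in wild-type larvae and 0.202 ± 0.0731 CPM (SD, n = 4) in homozygotes (log2 fold change -3.32, SE 0.48, adjusted p = 0.00850 by edgeR). This gene passed the filter on low values through the wild-type larvae only, since no homozygote reached the 0.556 CPM, on unscaled library totals, that the filter asks of 4 libraries. c1qa reached it in 2 homozygotes, so it too would not have passed on the homozygotes alone. c1qc reached it in all 4 homozygotes.

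c1qc, the gene of the C chain, had 77, 77, 93 and 43 counts in wild-type larvae 1 to 4 and 16, 23, 18 and 20 counts in homozygotes 1 to 4. Its CPM values were 4.32, 6.33, 6.23 and 2.51 in wild-type larvae and 0.906, 1.30, 0.799 and 0.935 in homozygotes. Wild-type 4 was again the lowest of its group, at 1.93 times the highest homozygote, the narrowest gap of the 3 genes. The means were 4.85 ± 1.81 CPM (SD, n = 4) and 0.986 ± 0.220 CPM (SD, n = 4), with a log2 fold change of -2.29 (SE 0.34, adjusted p = 0.0104 by edgeR).

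**Figure D1:**
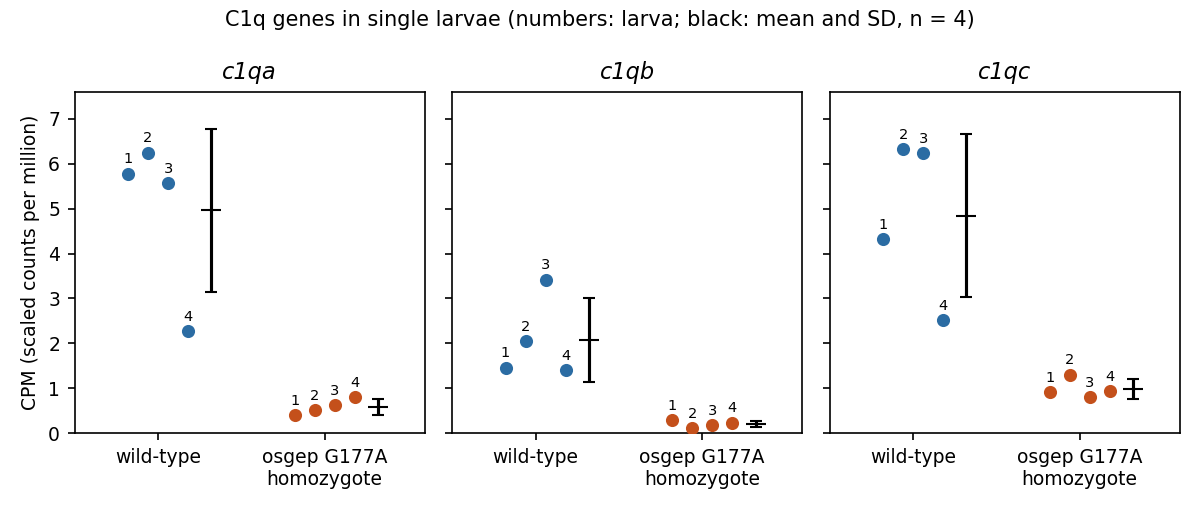
CPM of c1qa, c1qb and c1qc (vertical axis, linear from 0) in each wild-type (blue) and homozygous (orange) larva, with larva numbers beside the points and the mean and SD (n = 4) in black. In every panel the 4 homozygotes lie below the 4 wild-type larvae, with the narrowest gap in c1qc, where wild-type 4 is at 2.51 CPM and homozygote 2 at 1.30 CPM.

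The 3 calls held in all 16 alternative settings in which the genes were tested. These were other scalings, tools and filters, a replicate block, each library left out in turn, and the pair that stood apart left out together. The adjusted p ranged from 2.09e-10 to 0.0254 for c1qa, from 1.45e-06 to 0.0455 for c1qb and from 4.07e-07 to 0.0471 for c1qc. The highest values for c1qb and c1qc came without wild-type 3, where 0.146% of all rows were called lower. The corresponding share was 5.77%, 0.228% and 1.19% without wild-type 1, 2 and 4, 0.184%, 3.46%, 0.226% and 0.351% without homozygotes 1 to 4, 0.163% with libraries scaled by totals alone, 5.20% by DESeq2 and 0.476% by limma voom. Without wild-type 1 and homozygote 2 the log2 fold changes were -2.89, -3.26 and -2.47 for c1qa, c1qb and c1qc, where 10.5% of all rows were called lower.

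The number of reads limits the precision of the homozygous values. Pooled over the 4 homozygotes there were 47 counts of c1qa (exact Poisson 95% interval 34.5 to 62.5), 16 of c1qb (9.15 to 26.0) and 77 of c1qc (60.8 to 96.2), against 301, 126 and 290 in wild-type larvae. The ratio of pooled counts per scaled library, wild-type over homozygote, was 8.18 for c1qa (95% interval 6.00 to 11.4), 10.05 for c1qb (5.96 to 18.1) and 4.81 for c1qc (3.73 to 6.27). These intervals cover counting error only. Among homozygotes the coefficient of variation was 29.2%, 36.2% and 22.3% for c1qa, c1qb and c1qc, where counting alone gives 29.2%, 50% and 22.8% at their mean counts. Among wild-type larvae it was 36.6%, 45.0% and 37.4%, above the 11.5%, 17.8% and 11.7% that counting gives. The larvae of the wild-type group thus differed by more than counting error, and a spread beyond counting error among homozygotes was not detectable at this depth.

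The smaller difference of c1qc raises the question whether the 3 chains kept their proportions. A ratio of the counts of a pair of them within a larva does not depend on library scaling, and its change between groups does not depend on gene length. The log2 ratio of c1qa to c1qc was 0.42, -0.02, -0.16 and -0.14 in wild-type larvae 1 to 4 and -1.14, -1.31, -0.35 and -0.23 in homozygotes 1 to 4. The groups did not overlap, but homozygotes 3 and 4 lay close to wild-type 3, and the mean difference was -0.78 (exact two-sided permutation p = 0.0286, the smallest that 4 against 4 larvae allow, and 0.0857 after adjustment over the 3 pairs). The ratio of c1qb to c1qc differed by -0.98 with overlapping groups (exact permutation p = 0.0571, adjusted 0.0857). That of c1qa to c1qb differed by 0.20, less than its SD of 0.64 and 0.67 within the groups (exact permutation p = 0.80, adjusted 0.80), and was -0.02 with 2 in place of 0.5 added to each count. Without wild-type 1 and homozygote 2 the differences were -0.47 for c1qa to c1qc, -0.74 for c1qb to c1qc and 0.28 for c1qa to c1qb. With only 1 pair at the smallest p, no adjusted p under 0.05 was possible. No pair passed the correction, so a change of proportion among the chains was neither shown nor excluded.

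The 3 genes are neighbours. In the gene order of the RefSeq annotation of GRCz12tu, which is another build than that of the counts, they stand in the order c1qb, c1qc, c1qa with 0 protein-coding genes between them. Their 24 estimated counts were all exactly whole, as were 87.98% to 90.88% of all values in each library. Of the 10 protein-coding genes on each side, 11 could be matched by symbol and tested, and edgeR called 0 of them. By edgeR 1 had an unadjusted p under 0.05, beside 22.3% of all rows. DESeq2 called 1 lower, beside 5.20% of all rows, and limma voom 0. With the pair that stood apart left out, 1 was called lower, beside 10.5% of all rows. The log2 fold changes of the 11 ran from -1.09 to 0.50 with a median of 0.07. The adjoining gene fbxo40.1 was at -0.47 (adjusted p = 0.348 by edgeR). osgep is on another chromosome in that annotation.

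No tested partner of C1q in the first step of the classical pathway was called. Of 8 listed names 5 were matched. c2, c1s.1 and c1s.2 were not, so C2 could not be tested. Of the 5 genes tested, 0 passed in either direction by edgeR, DESeq2 or limma voom, beside 1.05%, 7.89% and 0.634% of all rows. By edgeR 0 had an unadjusted p under 0.05, beside 22.3% of all rows. At such shares 0 calls among 5 genes do not set them apart from other rows. When the pair that stood apart was left out, 4 of the 5 were tested. edgeR then called 0 of them, beside 18.3% of all rows in either direction, and 1 had an unadjusted p under 0.05. c1r, for the protease that C1q activates first, was 2.36, 1.56, 0.402 and 0.0584 CPM across wild-type larvae 1 to 4 and 0.340, 1.13, 0.932 and 0.327 CPM across homozygotes 1 to 4. c1s, for the next protease, was 9.03, 2.38, 1.14 and 0.350 CPM in wild-type larvae and 2.66, 2.27, 3.60 and 3.23 CPM in homozygotes. Both varied widely among wild-type larvae, with wild-type 1 high and wild-type 4 low, and the homozygotes lay inside that range. The log2 fold changes were -0.67 (SE 0.78) for c1r and -0.14 (SE 0.78) for c1s, and without wild-type 1 they became 0.12 and 1.26, neither of them called. serping1, for the C1 inhibitor, was 33.0 ± 4.51 CPM (SD, n = 4) in wild-type larvae and 29.8 ± 6.69 CPM (SD, n = 4) in homozygotes, a log2 fold change of -0.15 that became 0.23 with libraries scaled by totals alone. For the C4 genes the log2 fold change was -0.52 (SE 0.51) in c4 and 0.18 (SE 0.55) in c4b. c4b ranged from 23.6 to 149.4 CPM in wild-type larvae and from 48.9 to 136.7 CPM in homozygotes. With standard errors this large, a 2-fold change in c1r, c1s or the C4 genes was not detectable at this number of larvae.

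The other complement genes were centred at the median of all rows. Of 34 components of the lectin, alternative and terminal steps and their regulators, 0 were called by edgeR. The median log2 fold change was 0.02, beside 0.02 for all rows. Unadjusted, 8 of the 34 had an edgeR p under 0.05, near the share of 22.3% over all rows. DESeq2 called 2 lower, beside 5.20% of all rows, and limma voom 0. The members with the smallest p were cd59, for a membrane inhibitor of the terminal complex, at 50.4 ± 12.1 against 29.8 ± 10.8 CPM (SD, n = 4 each), and cfbl, for a factor B-like protease, at 25.8 ± 17.4 against 9.55 ± 2.82 CPM (SD, n = 4 each). Their log2 fold changes of -0.76 and -1.43 missed the threshold (adjusted p = 0.117 and 0.128 by edgeR). In cfbl wild-type 4, at 9.75 CPM, lay among the homozygotes. Without wild-type 1 and homozygote 2, 1 of the 34 was called lower, cd59, and 1 higher, c7a, for a component of the terminal complex, where 10.5% and 7.86% of all rows were.

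Genes for proteins that share the C1q globular domain but act outside complement, such as cerebellins, adiponectin and the C1QTNF family, were not called by edgeR either (0 of 41, median 0.04). Of these, 6 had an unadjusted p under 0.05 by edgeR, a smaller share than the 22.3% of all rows. DESeq2 called 1 lower and 1 higher (7.89% of all rows in either direction), and limma voom called 0. Leaving out wild-type 1 and homozygote 2 gave 0 lower and 3 higher by edgeR, beside 10.5% and 7.86% of all rows. The member with the smallest p was emilin1b, of the extracellular matrix, at 24.7 ± 4.01 CPM in wild-type larvae and 38.1 ± 9.15 CPM (SD, n = 4 each) in homozygotes (adjusted p = 0.100 by edgeR). cbln8, a cerebellin gene, was 9.61 ± 6.30 against 3.27 ± 1.31 CPM (SD, n = 4 each; adjusted p = 0.118).

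Among 9 tested genes for receptors and binding partners of C1q and complement fragments, 1 rose and 0 fell, beside 0.284% of all rows called higher. The riser was calr, for calreticulin, a chaperone of the endoplasmic reticulum that also binds C1q at cell surfaces, at 33.8 ± 6.52 CPM in wild-type and 59.5 ± 9.64 CPM in homozygous larvae (SD, n = 4 each; log2 fold change 0.81, adjusted p = 0.0451 by edgeR). Its edgeR call ended when wild-type 2 (adjusted p = 0.130), 3 (0.152) or 4 (0.0900) was left out, and likewise homozygote 1 (0.105), 3 (0.103) or 4 (0.104). It also ended with libraries scaled by totals alone (0.0536), with limma voom (0.0641) and without the robust option (0.0525). In the fit without wild-type 1 and homozygote 2, edgeR called calr and its paralog calr3b higher, beside 7.86% of all rows. That fit also called c1qbp lower, beside 10.5% of all rows. With all larvae calr3b stood at a log2 fold change of 0.51 (edgeR, adjusted p = 0.134). itgb2, for the beta chain of complement receptor 3 on leukocytes, was 58.5, 33.7, 34.5 and 19.4 CPM across wild-type larvae 1 to 4 and 17.1, 16.7, 29.1 and 23.7 CPM across homozygotes 1 to 4 (adjusted p = 0.175 by edgeR). c1qbp, for a mitochondrial protein first isolated as a binder of C1q globular heads, was singled out after its values were seen, at 89.4 ± 28.1 against 73.3 ± 14.0 CPM (SD, n = 4 each; log2 fold change -0.29, SE 0.22).

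**Figure D2:**
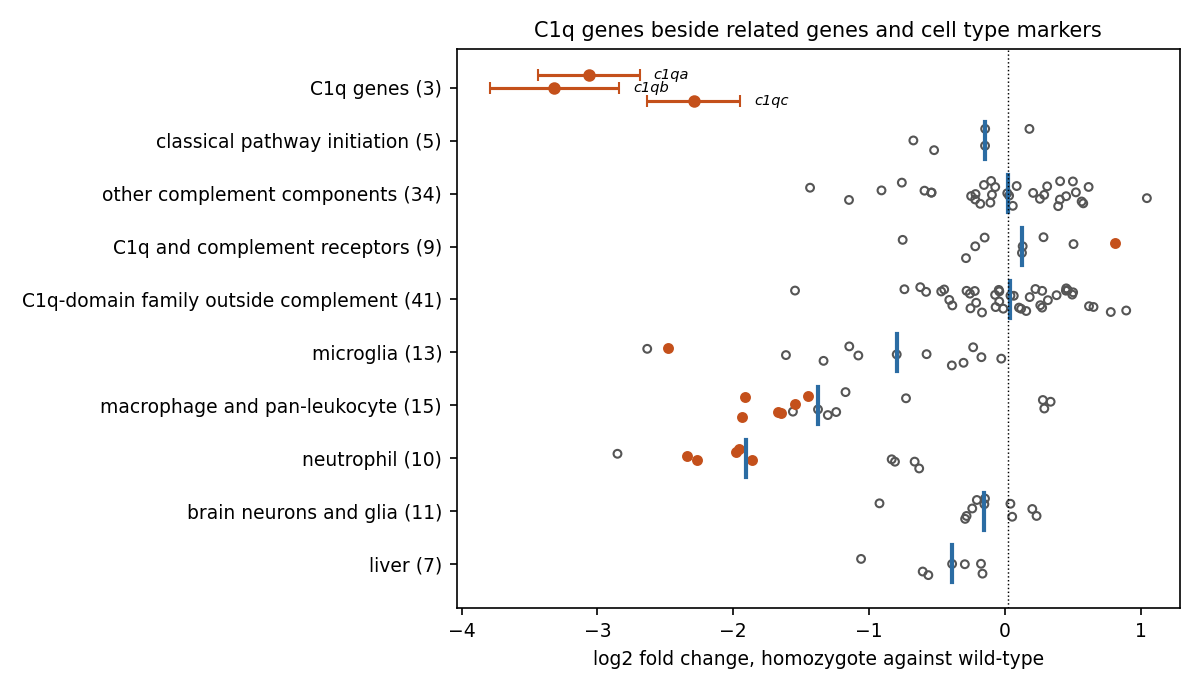
Log2 fold change (horizontal axis) of c1qa, c1qb and c1qc with SE bars, and of each tested gene of 9 lists, whose number of tested genes stands in brackets. Filled orange points passed an adjusted p of 0.05 by edgeR, open points did not, blue bars are list medians and the dotted line is the median of all rows. c1qa and c1qb lie to the left of every listed gene, and the complement lists are centred near 0.

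Of 13 tested genes on the microglia list 13 had log2 fold changes below 0, with a median of -0.80 (9 of 13 with libraries scaled by totals alone, median -0.45), and 1 fell, the chemokine gene ccl34b.1 (1.46, 2.05, 2.14 and 5.31 CPM across wild-type larvae 1 to 4 and 0.453, 0.737, 0.311 and 0.468 CPM across homozygotes 1 to 4; adjusted p = 0.0271 by edgeR). Leaving out any of wild-type 2, 3 and 4 and homozygotes 1, 3 and 4 ended its call (adjusted p by edgeR 0.0569, 0.0742, 0.0511, 0.0836, 0.0805 and 0.0708 in that order), as did scaling by library totals alone (0.0536) and limma voom (0.0688). In those 2 settings the 1 gene called was lgals3bpb, for a galectin-3-binding protein. DESeq2 called lgals3bpb too, as did edgeR at a minimum count of 50 (adjusted p = 0.0497). Dropping the robust option (0.0225) or adding the replicate block (0.00797) also gave its edgeR call. So did leaving out wild-type 1, 2 or 4, homozygote 2, or the pair that stood apart. lgals3bpb was not called with RLE scaling, without the filter, or without wild-type 3 or homozygote 1, 3 or 4. It was the gene of the list with the log2 fold change farthest from 0, at -2.63 (SE 0.52, adjusted p = 0.0575 by edgeR), and was 12.7, 62.8, 24.1 and 15.6 CPM across wild-type larvae 1 to 4 and 4.13, 6.01, 5.02 and 3.32 CPM across homozygotes 1 to 4. Wild-type 2 was the high larva, and the groups did not overlap. The purinergic receptor gene p2ry13 was 6.59 ± 3.16 against 2.14 ± 0.42 CPM (SD, n = 4 each) and havcr1, for a receptor of phosphatidylserine on dying cells, 7.87 ± 2.31 against 3.71 ± 0.37 CPM (SD, n = 4 each), both just short of the threshold (adjusted p = 0.0541 each by edgeR). Of 17 alternatives, p2ry13 was called lower in 4 and havcr1 in 6. p2ry12, a receptor gene largely restricted to microglia in the mammalian brain, was 1.46, 1.48, 2.14 and 1.46 CPM across wild-type larvae 1 to 4, with a mean of 1.64 ± 0.34 CPM (SD, n = 4) against 0.643 ± 0.119 CPM (SD, n = 4) in homozygotes. Its log2 fold change of -1.33 (SE 0.36) did not pass. The other 8 genes, named after their values were seen so that the list is complete, were not called either. Their log2 fold changes were -1.15 for havcr2, -0.80 for csf1ra, -0.58 for mertka, -0.39 for hexb, -0.30 for csf1rb, -0.23 for apoc1, -0.17 for apoeb and -0.03 for slc7a7. hexb encodes a lysosomal enzyme, mertka a receptor for the uptake of dying cells, apoeb and apoc1 apolipoproteins, and slc7a7 an amino acid transporter needed for microglia to form in zebrafish. apoeb and slc7a7 are also expressed outside microglia. trem2 was listed at 0 in every larva and tyrobp had 7 counts in all wild-type and 16 in all homozygous larvae, too few to test. Of the 13 tested genes, 9 had an unadjusted p under 0.05 by edgeR, beside 22.3% of all rows. The summed level of the list was 1771 to 2897 CPM in wild-type and 1478 to 2114 CPM in homozygous larvae, most of it from apoeb. Beside 0.769% of all rows called lower with every larva, the number of microglia genes called lower was 0 without wild-type 3 or homozygote 1, 3 or 4 (0.146%, 0.184%, 0.226% and 0.351% of all rows), 3 without wild-type 4 or homozygote 2 (1.19% and 3.46%), 5 without wild-type 1 (5.77%), and 5 without wild-type 1 and homozygote 2 together (10.5%).

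Of the 15 macrophage and pan-leukocyte genes that were tested 6 fell, beside 0.769% of all rows, and none rose by edgeR (0 higher also by DESeq2 and limma voom), with a median of -1.38 and summed levels of 410.5 to 948.8 CPM in wild-type against 245.9 to 355.7 CPM in homozygous larvae. cd74b, for the invariant chain of antigen presentation, was 10.2, 11.9, 9.65 and 8.70 CPM across wild-type larvae 1 to 4 and 2.89, 3.85, 3.95 and 2.20 CPM across homozygotes 1 to 4 (adjusted p = 0.00742 by edgeR), and it was called whichever library was left out. lcp1, for an actin-bundling protein of all leukocytes, was 283.0, 381.7, 305.2 and 127.6 CPM in wild-type larvae and 52.7, 81.7, 94.5 and 57.8 CPM in homozygotes (adjusted p = 0.0157 by edgeR), a call lost without wild-type 3 (0.0615) or homozygote 1 (0.0551). The others that fell were mfap4, irf8, mpeg1.1 and cd74a, with log2 fold changes of -1.91, -1.67, -1.45 and -1.54. Leaving out any of wild-type 2 and 3 and homozygotes 1, 3 and 4 ended each of these 4 calls, as leaving out wild-type 4 did for cd74a, and the highest adjusted p by edgeR was 0.105 for mfap4, 0.132 for irf8, 0.122 for mpeg1.1 and 0.145 for cd74a. Scaling by library totals alone also ended the calls of irf8, mpeg1.1 and cd74a, limma voom those of mpeg1.1 and cd74a, and the fit without the robust option that of cd74a. The number called lower was 2 without wild-type 2, homozygote 3 or homozygote 4 (0.228%, 0.226% and 0.351% of all rows), 1 without wild-type 3 or homozygote 1 (0.146% and 0.184%), 10 without wild-type 1 and homozygote 2 together (10.5%), and 3 with libraries scaled by totals alone (0.163%). With all larvae, 12 of the 15 had an unadjusted p under 0.05 by edgeR, beside 22.3% of all rows. mpeg1.2, timd4 and mrc1a were the 3 genes of the list above 0, at log2 fold changes of 0.34, 0.28 and 0.29, none of them called. spi1a, for a transcription factor of the myeloid lineage, was 25.1 ± 10.3 against 11.1 ± 1.64 CPM (SD, n = 4 each, adjusted p = 0.0542 by edgeR). It was called lower in 5 of 17 alternatives. Wild-type 4, the low larva for c1qa and c1qc, was also the lowest wild-type larva for lcp1, spi1a, mfap4 (33.1 CPM, others 82.0 to 106.1) and mpeg1.1 (16.3 CPM, others 29.8 to 47.2). This did not hold for every listed gene. The lowest was wild-type 1 for cd74a (3.93 CPM, wild-type 4 at 9.22) and wild-type 2 for marco (13.1 CPM, wild-type 4 at 21.1) and irf8. For timd4 (2.86 CPM) and the microglia gene ccl34b.1 (5.31 CPM) wild-type 4 was the highest wild-type larva.

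Whether the C1q genes differed more than these 4 genes of leukocytes was tested with ratios within each larva to mpeg1.1 and csf1ra, genes of macrophages and microglia, lcp1, of leukocytes in general, and mpx, of neutrophils. By edgeR their log2 fold changes were -1.45, -0.80, -1.94 and -2.27 in that order, all smaller falls than those of c1qa and c1qb. The direction of the c1qa and c1qb ratios was thus largely set by the choice of genes. Ratios to genes with larger falls, such as lyz (-2.85) and grn1 (-3.21), were not tested. csf1ra is also expressed in xanthophores, the yellow pigment cells, whose part in its ratios was not tested. The log2 ratio of c1qa to csf1ra, the receptor gene for the growth factor on which macrophages depend, was -3.24, -2.52, -2.71 and -3.32 in wild-type larvae 1 to 4 and -5.29, -5.36, -4.90 and -5.14 in homozygotes 1 to 4. Every homozygote lay more than 1 unit below every wild-type larva, and the mean difference was -2.22 (exact two-sided permutation p = 0.0286, adjusted over 12 ratios 0.0571). For c1qb to csf1ra the difference was -2.42 and for c1qc to csf1ra -1.44, also with no overlap (exact permutation p = 0.0286 each, adjusted 0.0571 each). Without wild-type 1 and homozygote 2 the differences to csf1ra were -2.26, -2.54 and -1.79 for c1qa, c1qb and c1qc. Relative to mpeg1.1 the differences were -1.61 for c1qa and -1.81 for c1qb with no overlap (exact permutation p = 0.0286 each, adjusted 0.0571 each), and -0.83 for c1qc with overlap (adjusted 0.103, exact permutation).

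Relative to lcp1 the groups did not overlap for c1qa alone, at a difference of -1.11 (exact permutation p = 0.0286, adjusted 0.0571). Relative to mpx they overlapped for all 3 genes, with differences of -0.73 for c1qa, -0.93 for c1qb and 0.05 for c1qc (adjusted 0.0857, 0.0857 and 0.83 by exact permutation). Without wild-type 1 and homozygote 2 the differences to lcp1 were -0.94, -1.22 and -0.47 for c1qa, c1qb and c1qc. Those to mpx were then -0.57, -0.85 and -0.11 in the same order. With all larvae, 6 of the 12 ratios reached the smallest p this design allows and 0 passed after adjustment. With 2 in place of 0.5 added to each count, 5 of the 12 reached it, since the groups came to overlap for c1qb to mpeg1.1 (difference -1.44, exact permutation p = 0.0857, adjusted 0.129), and the other 5 had an adjusted p of 0.0686 by exact permutation. With 6 of 12 ratios at the smallest p, no adjusted p under 0.0571 was possible, however far apart the groups lay. So a larger fall of C1q genes than of these genes was not shown at the threshold, and these tests could not exclude it.

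**Figure D3:**
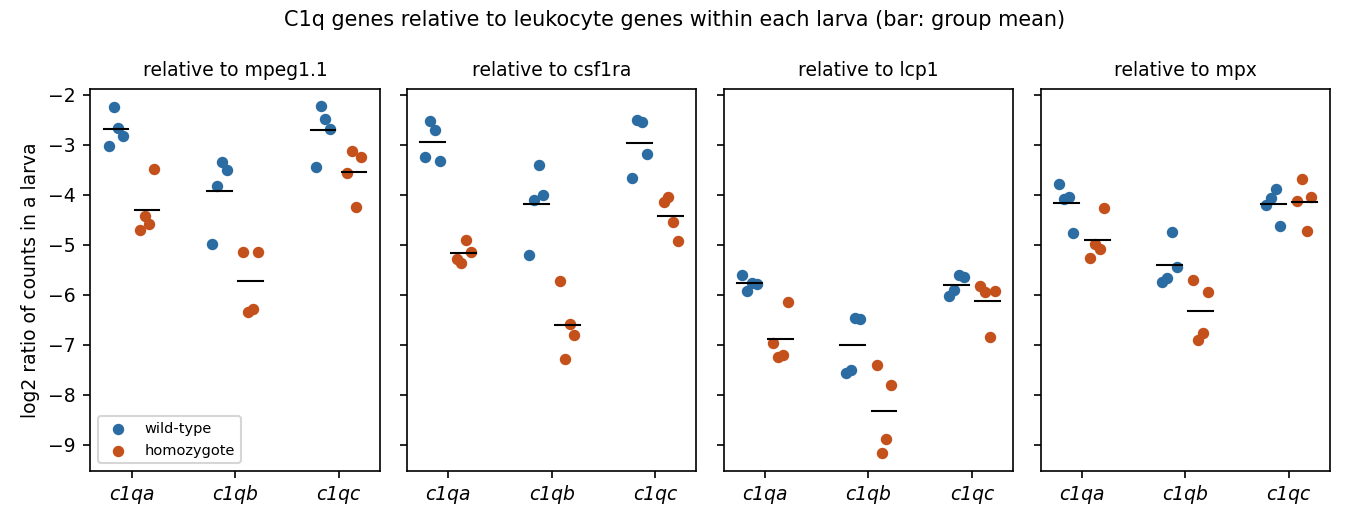
Log2 ratio of the counts of c1qa, c1qb and c1qc to those of mpeg1.1, csf1ra, lcp1 and mpx within each larva (vertical axis), for wild-type (blue) and homozygous (orange) larvae, with bars at the group means. The groups are apart for all 3 genes relative to csf1ra and overlap for all 3 relative to mpx; distances between genes are not corrected for gene length.

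Of 10 neutrophil genes 5 fell, beside 0.769% of all rows, and 0 rose by edgeR (0 higher also by DESeq2 and limma voom), with a median of -1.91 and summed levels of 452.0 to 911.8 CPM in wild-type against 174.9 to 241.2 CPM in homozygous larvae. mpx, for the myeloperoxidase of neutrophil granules, was 80.0, 106.7, 91.9 and 62.4 CPM across wild-type larvae 1 to 4 and 16.2, 17.0, 21.8 and 15.8 CPM across homozygotes 1 to 4. The others that fell were mmp13a, ncf1, npsn and csf3r. csf3r lost its call without wild-type 2 or 3, or homozygote 1, 3 or 4. It also lost it with library totals alone, limma voom and the replicate block. ncf1 lost its call without homozygote 1 or 4, and with library totals alone. lyz, at a log2 fold change of -2.85, was not called (adjusted p = 0.0554 by edgeR). It was called lower in 9 of 17 alternatives, among them DESeq2, limma voom, library totals alone and the replicate block. Of the 10 neutrophil genes, 8 had an unadjusted p under 0.05 by edgeR, beside 22.3% of all rows. With 1 library left out, between 3 and 7 neutrophil genes were called lower. There were 3 without homozygote 1 or 4 (0.184% and 0.351% of all rows), 7 without wild-type 1 or homozygote 2 (5.77% and 3.46%), and 7 without both (10.5%). Of 11 genes of brain neurons and glia 0 were called by edgeR, DESeq2 or limma voom. By edgeR 0 had an unadjusted p under 0.05, beside 22.3% of all rows, and by limma voom 1 had. Their median of -0.15 became 0.21 with libraries scaled by totals alone, where the median of all rows was 0.40. Without homozygote 2, 1 was called lower, fabp7a, for a fatty acid-binding protein of radial glia, beside 3.46% of all rows. The same gene alone was called with wild-type 1 left out too, beside 10.5%. The pan-neuronal gene elavl3 was 72.9 ± 5.66 CPM in wild-type and 59.5 ± 13.4 CPM in homozygous larvae (SD, n = 4 each; adjusted p = 0.339 by edgeR), a log2 fold change of -0.29, or 0.13 with that scaling. Of 7 liver genes 0 were called by edgeR, with a median of -0.39. By edgeR 2 of the 7 had an unadjusted p under 0.05, beside 22.3% of all rows. DESeq2 called 1 lower, beside 5.20% of all rows, and limma voom 0. Without wild-type 1, 2 of the 7 were called lower, fabp10a and serpina1, beside 5.77% of all rows. With homozygote 2 left out too, 3 were, apoa2 in addition, beside 10.5%. fabp10a, for the liver fatty acid-binding protein, was 554.9 ± 198.8 against 266.4 ± 66.5 CPM (SD, n = 4 each; adjusted p = 0.0705 by edgeR). The part of these cell types in the C1q values was not tested.

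The genes whose pattern over the 8 larvae was nearest to that of the C1q genes were found by the root-mean-square distance between log2 CPM values, each centred on its own mean, and the average of the 3 C1q genes. The distance is 0 for identical patterns, and over 16000 eligible genes its median was 1.36. c1qa, c1qb and c1qc were themselves at 0.277, 0.304 and 0.298. Each of them is part of that average, which lowers its distance, so these values cannot be set beside those of other genes. Taken from each other in pairs, single gene to single gene, the 3 C1q genes were 0.488 to 0.535 apart. Among other genes the nearest to the average was mpx at 0.293. It was followed by fcer1gl, for an Fc receptor gamma-like signalling chain, at 0.303 and xcr1b.3, for a chemokine receptor, at 0.341. ripk3, for a necroptosis kinase, was at 0.389, grn1, a granulin gene, at 0.415, fgd4b, for a guanine nucleotide exchange factor, at 0.427, and the lens crystallin gene crygm2f, one of a cluster of near-identical genes whose counts are uncertain, at 0.436. The neutrophil protease gene npsn (0.465), fabp7b, for a fatty acid-binding protein (0.472), and lcp1 (0.479) completed the 10.

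In each of the 10 genes every homozygote was lower than every wild-type larva, as the measure favours. fcer1gl was 69.2, 98.4, 69.5 and 31.3 CPM across wild-type larvae 1 to 4 and 8.49, 13.4, 11.99 and 9.40 CPM across homozygotes 1 to 4. grn1 was 242.5, 276.1, 292.1 and 115.7 CPM in wild-type larvae and 24.2, 34.7, 16.7 and 24.9 CPM in homozygotes. In both genes wild-type 4 was the lowest of its group, as for c1qa and c1qc. fabp7b was 7.57, 15.5, 12.7 and 7.12 CPM in wild-type larvae and 3.06, 3.17, 2.75 and 3.23 CPM in homozygotes, with wild-type 1 and 4 low. When distances were taken from the deviations around each group's own mean, 0 of these 10 were among the nearest 10.

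**Figure D4:**
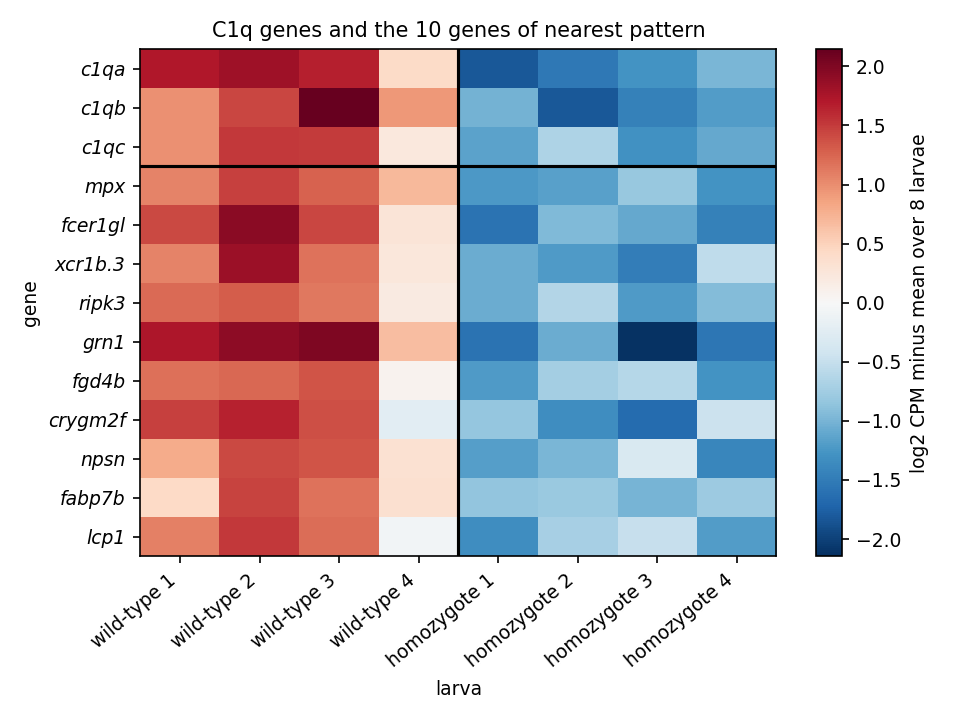
Log2 CPM minus its mean over the 8 larvae (colour, red above and blue below) for c1qa, c1qb, c1qc and the 10 genes of nearest pattern (rows) in each larva (columns). Wild-type columns are red and homozygous columns blue in nearly all rows, and wild-type 4 is the palest wild-type column in most of them.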

How the data were processed

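The authors deposited 1 table of RSEM estimated counts, not scaled, with a column for each of 8 libraries, each of RNA from 1 larva after ribosomal RNA depletion, per the labels' protocols. The tools were Trimmomatic, STAR 2.7 and RSEM with danRer11, per the submitters' processing notes; their settings, annotation and strand handling are not given in the sources used here, so a gene and an overlapping or antisense partner may share reads. Columns of other samples numbered 0. Counts were rounded, filtered with filterByExpr (minimum count 10) and scaled by TMM. CPM uses the scaled library sizes. Genes were tested in R 4.3.3 with edgeR 4.0.16 (robust quasi-likelihood, genotype as the only term, Benjamini-Hochberg at 0.05 over 21447 rows); SEs come from the F statistic. Log2 CPM used a prior count of 2. Ratios within a larva used counts + 0.5 and exact two-sided permutation tests over 70 divisions. limma 3.58.1 (voom) and DESeq2 1.42.0 were alternatives. The steps were tested on simulated data.

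Members and lists were chosen with earlier results of these data known. Of the gene names on the 9 lists some were not matched (93 of 107 complement and C1q-related names were in the table). Genes were named by a rule: the members, osgep, all measured genes of classical pathway initiation, called genes of each other list (at most 8) and the 2 uncalled ones with the smallest p, of which the text leaves out some, and the 10 nearest patterns. The remaining microglia genes and genes called in alternatives alone were named after their values were seen. Each library is another animal, so p-values rest on the spread among these animals. Libraries of a group all differed by more than sampling noise (chi-square over its degrees of freedom 20.7 to 80.1).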

Additional observations from a re-analysis of the deposited data

Results flagged for a closer look

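Of 120 groups of 4 values checked for a sample far from the others, 4 were flagged, and chance flags about 1 in 20. Among wild-type larvae irf8, for a macrophage transcription factor, was 67.0 CPM in wild-type 1 against 28.1 CPM in the next larva. mmp13a, a collagenase gene on the neutrophil list, was 114 CPM in wild-type 2 against 59.3 CPM in the next. Among homozygotes the liver gene serpina1 was 279.3 CPM in homozygote 1, with the next at 348.7 CPM. The log2 ratio of c1qc to lcp1 was -6.85 in homozygote 3, with the next at -5.94. No group of c1qa, c1qb or c1qc CPM values was flagged.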

How the results depend on the processing

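The calls of c1qa, c1qb and c1qc kept their direction and stayed under 0.05 in 16 alternatives each; at a minimum count of 50 none of the 3 passed the filter. The log2 fold change ranged from -3.31 to -2.68 for c1qa, -3.49 to -2.90 for c1qb and -2.51 to -1.90 for c1qc, the value nearest 0 coming in each gene from scaling by library totals alone. That scaling moved the median of all rows from 0.02 to 0.40. None of the 15 ratios passed after adjustment with 2 added to each count, and the ratio of c1qa to c1qb changed sign there, to -0.025; with a library left out, or with a replicate block, these exact tests cannot reach 0.05 (smallest p 0.0571, 0.1 or 0.125), so their values alone were compared.

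Deviations of same-numbered larvae from their group means were hardly correlated (-0.0791, 0.0519, -0.0769 and -0.107). With 4 larvae in each group this cannot exclude a pairing by replicate number, and the labels name no clutch or day. With the replicate block the adjusted p was 0.0135 for c1qa, 0.0215 for c1qb and 0.0169 for c1qc by edgeR, and 333 rows were called in place of 226. In that fit 2 microglia genes and 1 complement-related gene were called lower, beside 1.22% of all rows.

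Counts over the lists moved more, and the cause was not tested. Main counts were 1 microglia and 6 macrophage and pan-leukocyte genes lower, and of 89 complement and C1q-related genes 0 lower and 1 higher. DESeq2 called 1693 rows, and 6, 11, 3 and 2 in those classes. Without the filter 3 microglia and 7 macrophage and pan-leukocyte genes were lower, beside 0.798% of all rows. Without the robust option 2 and 6 were, beside 0.699%. The complement-related gene called higher was lost (0) with library totals, limma voom or the non-robust fit; with library totals 3 macrophage genes were lower. Without wild-type 1 and homozygote 2 the counts were 5, 10, 2 and 6 (3952 rows called). With 1 library left out they ranged from 0 to 5, 1 to 9, 0 to 1 and 0 to 4 (38 to 2130 rows called).

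Uncalled genes changed sign. With library totals serping1 was 0.23, c1s 0.12 and elavl3 0.13. With limma voom c1r was 0.043 and c1s 0.73, and with the replicate block c1s was 0.59. With 1 library left out c1r ranged from -1.08 to 0.12, c1s from -0.52 to 1.26, c4b from -0.12 to 0.70 and serping1 from -0.25 to 0.0013. Without wild-type 1 and homozygote 2, c4 was 0.18 and c1s 1.37.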
